A study of Mus musculus with 5 samples.

Results

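The cells described here are 2571 excitatory and 631 inhibitory cells from E15.5 mouse cortical tissue, chosen by 4 genes from a deposited table of 5000 cells. A cell was taken as excitatory where Neurod2 and Neurod6, transcription factor genes of cortical projection neurons, together had at least 3 UMIs and Gad1 and Gad2 had 0. A cell was taken as inhibitory where Gad1 and Gad2, which encode the enzymes that make GABA, together had at least 2 UMIs and the Neurod pair at most 1. A UMI is a molecular tag that marks 1 captured mRNA molecule, and both classes were limited to cells with at least 500 UMIs, which 4991 of the 5000 cells had. The all-cell tables of the series hold 11000 cells over all its ages.

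The study profiled single cells of the embryonic cortex by Drop-seq, a droplet method that reads the 3' ends of mRNA from barcoded cells. All embryos were wild-type CD1 mice, an outbred strain, with no transgene or treatment, and the labels do not say how many embryos were pooled. Tissue was taken at E15.5 and, for comparison, at E17.5, E13.5 and E11.5, and cells were sorted for viability at each age other than E11.5. At E15.5 the labels list 2 batches, which 1 table holds together with no map of cells to batches.

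Columns 1 to 3000 of that table (stretch 1) and the remaining 2000 columns (stretch 2) were taken as 2 libraries because depth falls along each. The median UMI count per cell was 6227 in the first 250 columns of stretch 1 and 975 in its last 250. It was 5591 in the first 250 columns of stretch 2 and 968.5 in the last 250. No cell barcode was found in both stretches. Which stretch is which labelled batch was not used, and the table counts as 1 sample. For this reason, and because the 4 genes were read in the same cells, the comparison of the classes is a description without p-values. All intervals are exact 95% intervals, the limit given beside a count of 0 is 3 counts of the total, and both cover counting error only.

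Excitatory neurons of the cortex arise from the precursors of the dorsal forebrain wall, release glutamate, and settle in layers, with the deep layers born first. Inhibitory neurons arise in the ganglionic eminences of the ventral forebrain, where Dlx transcription factors act, and release GABA. The medial and caudal eminences supply the cortex with migrating interneurons, while the lateral eminence mainly supplies the striatum and olfactory bulb.

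The 12 leading genes of the inhibitory class include a pair of neighbouring loci in the mouse genome (GRCm38). Dlx1 lies at chr2:71528113-71533981 and Dlx2 at chr2:71543408-71546754. Dlx5 lies at chr6:6877801-6882068 beside the long noncoding RNA gene Dlx6os1 at chr6:6820543-6871627. The Dlx6os1 span contains Dlx6 at chr6:6863334-6867970, and without strand information reads of these overlapping genes cannot be told apart. Of those 12 genes, 9 had a RefSeq promoter, and that of Dlx6os1 was the only one to hold TAATTA, the letters of the homeodomain core motif, in the 250 bases before the start. Its stretch is shown, from RefSeq (GRCm38.p6, minus strand, chr6:6869628-6869693), with the TAATTA in capitals.
Dlx6os1: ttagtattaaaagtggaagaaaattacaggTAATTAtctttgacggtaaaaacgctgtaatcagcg
The motif starts 130 bases before the start site that the promoter table uses, which lies within the gene span given above. TAATTA was found in 2.23% of the promoters of 224 genes higher in inhibitory cells, beside 5.65% of all 27025 promoters and 2.82% of those of 6315 genes measured here. CAGATG on either strand, a letter form of the E-box that Neurod proteins recognise, was found in 14.3% of the promoters of 335 genes higher in excitatory cells. It was found in 11.0% of the promoters of measured genes and in 16.3% of all promoters. These are letter matches and not sites of binding.

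In stretch 1, 1602 cells (53.5%, interval 51.6 to 55.3) were excitatory and 349 (11.6%, interval 10.5 to 12.8) were inhibitory. In stretch 2, 969 cells (48.6%, interval 46.4 to 50.8) were excitatory and 282 (14.1%, interval 12.6 to 15.7) were inhibitory. Excitatory cells were the deeper class, with medians of 2532 and 2849 UMIs per cell in the 2 stretches, beside 1614 and 1823 in inhibitory cells. Their summed counts were 4824592 and 3120568 UMIs, and those of inhibitory cells 649456 and 582027.

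**Figure D1:**
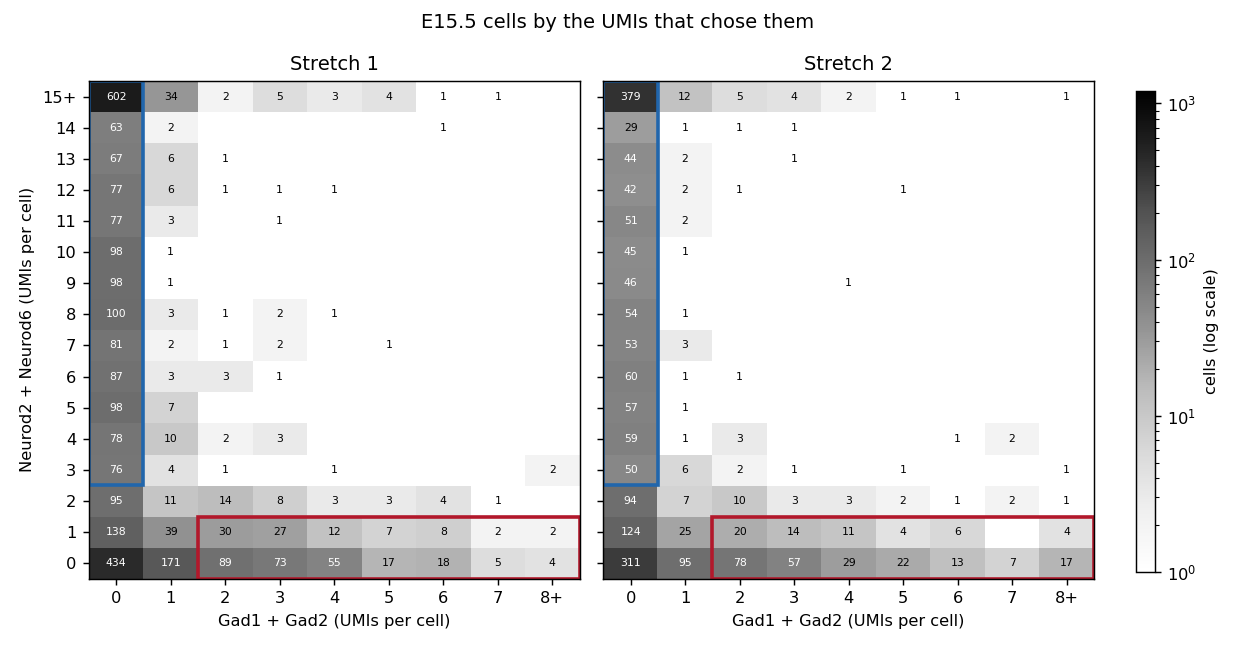
E15.5 cells by the UMIs that chose them, Gad1 plus Gad2 on the x axis and Neurod2 plus Neurod6 on the y axis, with 1 panel per stretch. Shading and numbers give cells; the blue outline encloses excitatory and the red outline inhibitory members, and most cells lie along the 2 axes.

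The values that chose the cells are given as a description. Neurod6 was at 3447 and 3289 CPM (the summed count of a gene in a class, scaled by the total UMIs of that class) in excitatory cells of stretches 1 and 2, and at 84.7 and 63.6 in inhibitory cells. Neurod2 was at 1123 and 1248 CPM in excitatory cells and at 50.8 and 37.8 in inhibitory cells. Gad2 was at 1529 and 1499.9 CPM and Gad1 at 303 and 311 CPM in inhibitory cells, and both are 0 in excitatory cells by the rule. The median excitatory cell had 12 UMIs of its pair and the median inhibitory cell 3.

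The thresholds were examined with markers that took no part in the choice. The inhibitory markers Slc32a1, Dlx1, Dlx2, Dlx5 and Dlx6os1 summed to 3212 CPM in inhibitory cells and 57.8 CPM in excitatory cells. Slc17a6, Slc17a7 and Tbr1, taken as excitatory markers, summed to 355 CPM in excitatory cells and 34.1 CPM in inhibitory cells. Inhibitory markers were high on both sides of the inhibitory threshold. The 217 cells with exactly 2 Gad UMIs had 3453 CPM of the inhibitory markers, and the 330 cells just outside, with 1, had 2914 CPM. Both marker sets were present on both sides of the excitatory threshold. The 126 cells with exactly 3 Neurod UMIs had 361 CPM of inhibitory and 305 CPM of excitatory markers, and the 189 just outside, with 2, had 377 and 191 CPM. Cells past both thresholds, which belong to neither class, numbered 75 and had a median of 4252 UMIs.

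The authors also deposited a table of 2955 cells of the cortical lineage with the same counts for each shared cell. It holds 2418 of the excitatory cells (94.0%) and 4 of the inhibitory cells (0.634%, interval 0.173 to 1.62). Where in the tissue the inhibitory cells lay was not tested.

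The label of neurons holds only in part for the inhibitory class, and excitatory cells also carried cell cycle and progenitor RNA. Of 20 cell cycle genes, all were measured, 19 were at least 2-fold higher in inhibitory cells in both stretches and Pcna was not. Their summed level was 4231 and 5120 CPM in inhibitory cells and 840 and 715 CPM in excitatory cells. At least 2 UMIs of these genes were seen in 35.5% and 36.5% of inhibitory cells and in 24.97% and 23.3% of excitatory cells, which were deeper. Top2a, which encodes a topoisomerase of dividing cells, was at 579 and 675 CPM in inhibitory cells and at 75.03 and 67.6 CPM in excitatory cells. Of 12 radial precursor markers measured, 2 were higher in each class, and the median log2 ratio was -0.07. The list summed to 1695 and 1631 CPM in inhibitory cells and to 1585 and 1062 CPM in excitatory cells. At least 2 UMIs of the list were seen in 54.2% and 54.96% of inhibitory cells. The share was 56.2% and 56.6% among excitatory cells, which were deeper. Among these markers is Sox2, a transcription factor gene of neural precursors. It was at 465 and 589 CPM in inhibitory cells and at 45.2 and 29.2 CPM in excitatory cells. It remained higher in inhibitory cells when cells with cell cycle UMIs were left out, as given below. Sox9 was also higher in inhibitory cells, whereas Fabp7 and Aldoc were higher in excitatory cells. At least 2 UMIs of 10 intermediate progenitor markers were seen in 59.6% and 62.7% of excitatory cells. In inhibitory cells the share was 39.8% and 44.7%. Excitatory cells were deeper, and the markers include Elavl4, which is also on the pan-neuronal list. The names excitatory and inhibitory cells are therefore used here for classes set by the rule, not for postmitotic neurons.

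Of 8395 genes with at least 50 UMIs over both classes in each stretch, 453 (5.40%) were at least 2-fold higher in excitatory cells in both stretches, and 305 (3.63%) in inhibitory cells, the 4 genes of the rule left out. The median log2 ratio of all measured genes was 0.02. Of the 664 genes 2-fold higher in excitatory cells of stretch 1, 453 (68.2%) were so in stretch 2, and these are 57.6% of the 787 of stretch 2. Of the 391 genes 2-fold higher in inhibitory cells of stretch 1, 305 (78.0%) were so in stretch 2, which is 65.9% of the 463 of stretch 2. The number of genes in each direction cannot be compared, because the UMI minimum is mostly met by the larger excitatory sums. It was 643 against 594 with a minimum of 10 UMIs, 643 against 1257 with none, and 324 against 130 without cells that had 2 or more cell cycle UMIs.

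**Figure D2:**
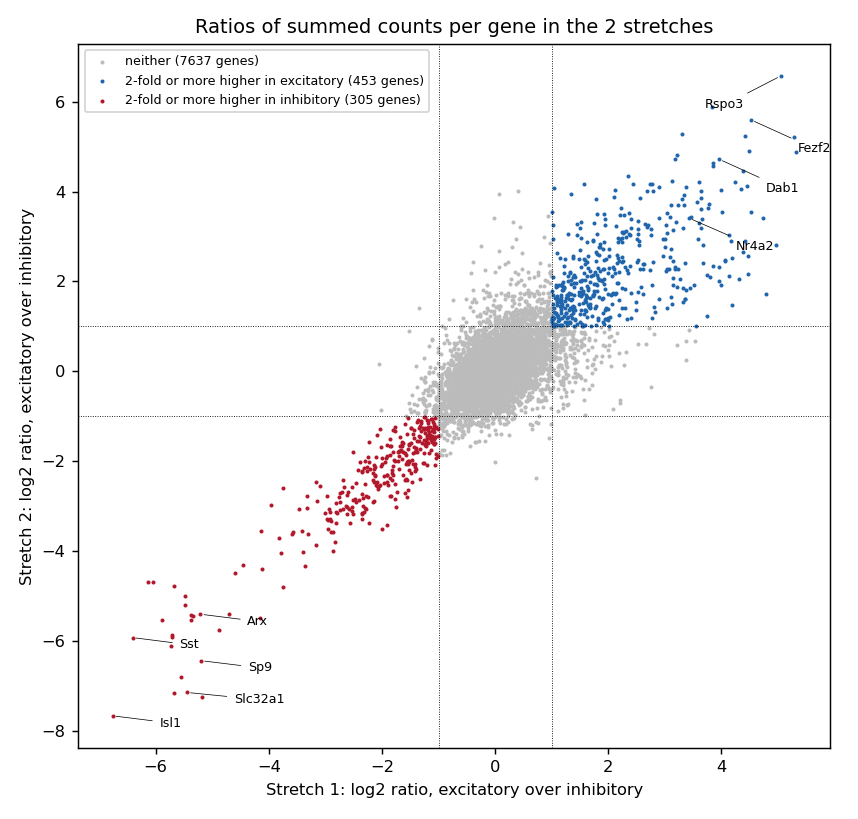
Log2 ratio of summed CPM, excitatory over inhibitory, of 8395 genes in stretch 1 (x axis) and stretch 2 (y axis). Dotted lines mark a 2-fold ratio. In both stretches, 453 genes (blue) pass it towards excitatory and 305 (red) towards inhibitory cells. The leading genes were ranked by these ratios and so lie far from the origin.

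Transcription factors of the dorsal cortex led the excitatory class. Of 18 measured factors of the pallium and of excitatory neurons, 13 were 2-fold higher in excitatory cells and none in inhibitory cells, with a median log2 ratio of 3.05. Of 11 measured deep-layer genes, 8 were higher in excitatory cells and none in inhibitory cells, with a median of 3.30. Fezf2, which specifies neurons that project below the cortex, was at 462 and 499 CPM in excitatory cells and at 20.02 and 10.3 CPM in inhibitory cells, a ratio of 23.1 (interval 13.46 to 43.4) and 48.4 (22.2 to 132). Sox5, a factor of deep-layer neurons, was at 479 and 568 CPM in excitatory cells and at 38.5 and 46.4 CPM in inhibitory cells. Tbr1, a factor of layer 6 neurons, was at 271 and 279 CPM in excitatory cells and at 24.6 and 25.8 CPM in inhibitory cells, a ratio of 11.0 and 10.8. Emx1, a dorsal forebrain homeobox gene, was at 112 and 129 CPM in excitatory cells and at 7.70 and 5.15 CPM in inhibitory cells. The exact 95% intervals of these summed levels did not overlap between the classes in either stretch, for each of these genes. The intervals cover counting error only, and the spread of single cells was not compared. These genes were ranked by their ratios, so the gap follows from that choice. The share of all measured genes without such overlap was not counted. Uchl1, a pan-neuronal gene that passed 2-fold in neither direction, also had no overlap in either stretch. In stretch 1 its intervals were 827 to 879 CPM in excitatory cells and 391 to 494 CPM in inhibitory cells. Nr4a2, a nuclear receptor gene of the subplate and claustrum, was at 49.7 and 54.8 CPM in excitatory cells and had 0 UMIs in inhibitory cells. Taken against a floor of 3 counts per class and stretch, its ratio was 10.8 and 10.6. The lower bounds of its exact intervals were 8.69 and 8.55.

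Other leading genes of the excitatory class belong to signalling, adhesion and migration. Id2, an inhibitor of basic helix-loop-helix factors, was the most abundant of the 12, at 1544 and 1629 CPM in excitatory cells and 73.9 CPM in inhibitory cells of either stretch. Its ratio was 20.9 (interval 15.7 to 28.4) in stretch 1 and 22.04 (16.3 to 30.5) in stretch 2. Dab1, the adaptor that carries the reelin signal within migrating neurons, was at 479.8 and 498 CPM in excitatory cells and at 30.8 and 18.9 CPM in inhibitory cells. Rspo3, a secreted Wnt pathway enhancer, was at 153 and 164 CPM in excitatory cells, with 3 and 1 UMIs in inhibitory cells. Its ratios were 33.2 (interval 11.3 to 161) and 95.3 (17.0 to 3770), and the width of these intervals follows from those few UMIs. Neurod1, a relative of the rule's factors, was 21.98-fold and 17.49-fold higher in excitatory cells, and Nfix, a nuclear factor I gene, 12.7-fold and 10.4-fold higher.

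Upper-layer genes were mixed. Of 13 measured, 6 were higher in excitatory cells, 2 (Cux2 and Lmo4) were higher in inhibitory cells, and the median log2 ratio was 0.67. Cux2, which is also on the list of medial eminence interneuron genes, was 3.74-fold and 3.11-fold higher in inhibitory cells. Bcl11b, a deep-layer gene that striatal neurons also express, was at 542 and 735 CPM in excitatory cells and at 713 and 881 CPM in inhibitory cells. It passed 2-fold in neither direction.

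Homeobox genes of the ventral forebrain led the inhibitory class. Of 14 measured Dlx and shared subpallial factors, 12 were 2-fold higher in inhibitory cells, none in excitatory cells, and the median log2 ratio was -5.36. Dlx1 was at 1092 and 1125 CPM in inhibitory cells and at 20.9 and 18.6 CPM in excitatory cells, a ratio of 52.1 (interval 42.3 to 64.9) and 60.5 (46.2 to 80.6). Dlx2 was at 687 and 769.7 CPM in inhibitory cells and at 11.6 and 16.7 CPM in excitatory cells. Dlx6os1, whose promoter stretch is printed above, was at 796 and 849 CPM in inhibitory cells and at 15.1 and 14.4 CPM in excitatory cells. Dlx5 was at 408 and 379.7 CPM in inhibitory cells and at 7.67 and 5.45 CPM in excitatory cells. Each of the 4 was higher in inhibitory cells by over 40-fold in both stretches.

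**Figure D3:**
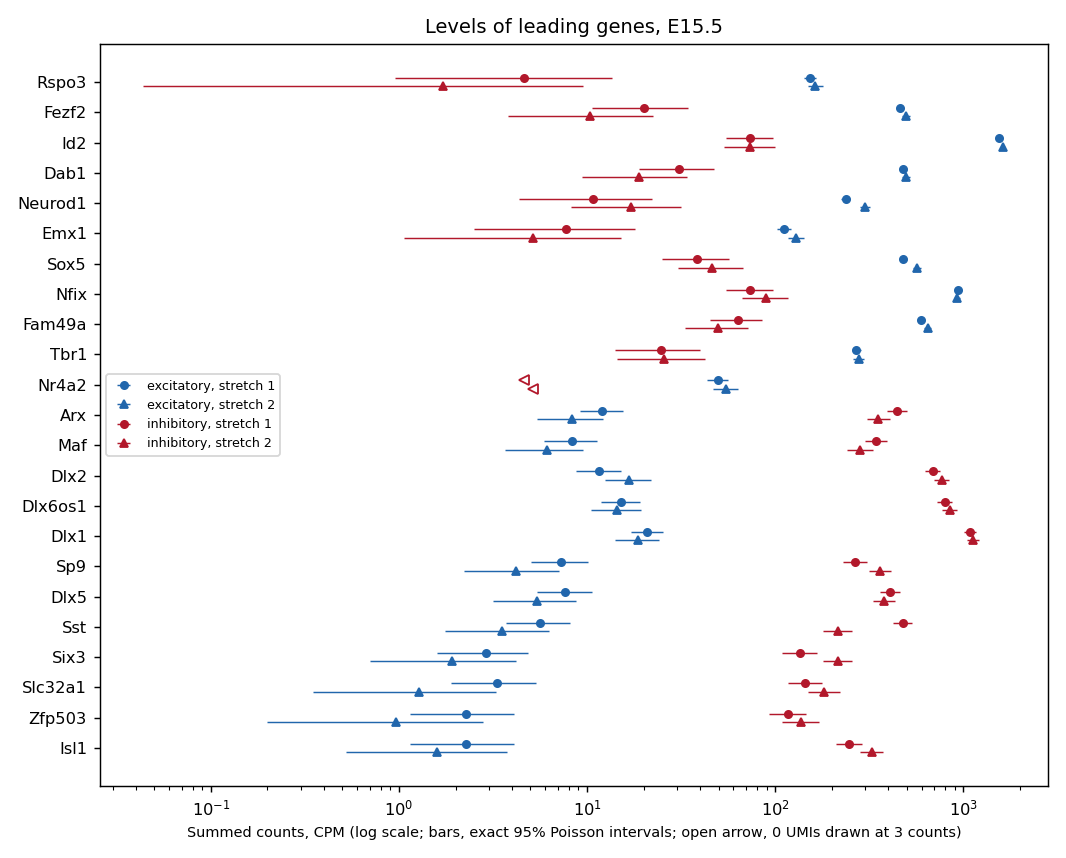
Summed counts in CPM (log scale) of leading genes of both directions in excitatory (blue) and inhibitory (red) cells of stretch 1 (circles) and stretch 2 (triangles), with exact 95% Poisson intervals as bars. Open arrows show Nr4a2, with 0 UMIs in inhibitory cells, at the 3-count floor. The genes were chosen by their ratios in both stretches, so the classes stand apart by that choice.

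Inhibitory cells carried genes of more than one eminence. Genes of medial eminence interneurons were higher in inhibitory cells for 10 of 12 measured, with a median log2 ratio of -3.91. Sst, which encodes the peptide somatostatin, was at 476 and 215 CPM in inhibitory cells and at 5.60 and 3.52 CPM in excitatory cells, so that its inhibitory level in stretch 1 was above that in stretch 2. Lhx6, a factor of medial eminence interneurons, was at 139 and 82.5 CPM in inhibitory cells and at 3.11 and 2.24 CPM in excitatory cells. Maf was at 343 and 283 CPM in inhibitory cells and at 8.29 and 6.09 CPM in excitatory cells. Genes of the lateral eminence and striatal neurons were higher in inhibitory cells for 10 of 15 measured, and the median was -1.79. Isl1, a factor of striatal projection neurons, had the highest ratio of the inhibitory class in both stretches, at 248 and 326 CPM in inhibitory cells and 2.28 and 1.602 CPM in excitatory cells, that is, 109-fold (interval 59.2 to 222) and 204-fold (85.8 to 635). Zfp503, which striatal neurons express, was at 117 and 137 CPM in inhibitory cells and at 2.28 and 0.961 CPM in excitatory cells. Ebf1, another striatal factor, was 29.6-fold and 54.3-fold higher in inhibitory cells. The genes of that list higher in excitatory cells were Ppp1r1b, a phosphatase regulator of dopamine-responsive neurons, and Sez6, a brain membrane protein gene, both named after their values were seen. Ppp1r1b was at 88.1 and 101 CPM in excitatory cells and at 6.16 and 1.72 CPM in inhibitory cells. Of 13 caudal eminence genes, 4 were measured (Calb2, Cnr1, Nr2f1 and Pax6) and none was higher in inhibitory cells. Sp8, Nr2f2, Prox1, Htr3a and Adarb2 were under the UMI minimum, so no direction was called for them. Nr2f1, a factor gene of that list, was at 97.0 and 60.1 CPM in inhibitory cells and at 60.5 and 73.4 CPM in excitatory cells, so that its direction differed between the stretches. Cnr1, which encodes a cannabinoid receptor, was 3.46-fold and 6.28-fold higher in excitatory cells.

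Shares of cells were compared after each cell was thinned to 1000 UMIs, which left 1558 and 924 excitatory and 327 and 249 inhibitory cells in the 2 stretches and dropped 89 excitatory and 55 inhibitory cells with fewer UMIs. Isl1 was seen in 14.98% and 19.7% of inhibitory cells (19.5% and 25.9% before thinning). Among excitatory cells of stretch 1 the share was 0.257%, and in stretch 2 none of 924 had a UMI, which allows up to 0.325% of thinned cells with one. Lhx6 was seen in 10.7% and 7.23% of inhibitory cells (18.1% and 12.8% before thinning) and 0.193% and 0.216% of excitatory cells. Over both stretches, 53 of 576 inhibitory cells had a Lhx6 UMI and 98 an Isl1 UMI, and no cell had UMIs of both. At this depth that allows up to 0.521% of cells with UMIs of both, and it sets no limit on cells that express both. Ebf1 was seen in 39 of the 98 Isl1 cells and in none of the 53 Lhx6 cells, beside 73 of all 576 cells. Maf was seen in 32 of the 53 Lhx6 cells, beside 114 of all 576.

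Among excitatory cells, Fezf2 was seen in 30.1% and 29.5% (48.1% and 49.1% before thinning), against 1.53% and 0.803% of inhibitory cells. Tbr1 was seen in 23.5% and 23.6% of excitatory cells (45.4% and 48.3% before thinning) and 3.06% and 2.01% of inhibitory cells. Tbr1 and Fezf2 were seen together in 186 cells, which is 31.8% of the 584 Tbr1 cells, while 29.9% of all 2482 excitatory cells had Fezf2. Eomes, a factor of intermediate progenitors, was seen in 288 of those 2482 cells.

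A vesicular transporter of each transmitter was higher in the class that releases it, and glutamate receptor subunits went either way. The vesicular glutamate transporters Slc17a7 and Slc17a8 were under the UMI minimum, so no direction was called for them. Slc32a1, the vesicular GABA transporter, was at 145 and 182 CPM in inhibitory cells and at 3.32 and 1.28 CPM in excitatory cells. Slc12a2, the chloride importer of immature neurons, was 3.12-fold and 2.99-fold higher in inhibitory cells. Without cells of 2 or more cell cycle UMIs it was 2.24-fold and 1.89-fold higher, on 11 and 10 UMIs in inhibitory cells. It was then under the UMI minimum, so no direction was called. Of 9 measured GABA genes, 3 were higher in inhibitory cells, beside 2 of 8 measured without cells of cell cycle UMIs. Gabra2, a GABA receptor subunit, was 2.51-fold (interval 1.24 to 5.91) and 2.10-fold (0.975 to 5.41) higher in excitatory cells. Its ratios rest on 8 and 7 UMIs in inhibitory cells, and the interval of stretch 2 includes 1. Without cells of 2 or more cell cycle UMIs they were 2.12 and 1.57. Slc17a6, a vesicular glutamate transporter, was 6.75-fold and 8.999-fold higher in excitatory cells. Of 14 glutamate genes measured, Slc17a6, Gria2 and Gria3 were higher in excitatory cells and Gria1, Gria4 and Grik2 in inhibitory cells. Gria2, an AMPA receptor subunit, was at 1189 and 1327 CPM in excitatory cells and 369.5 and 337 CPM in inhibitory cells. Gria4, another subunit, was 8.98-fold and 5.53-fold higher in inhibitory cells.

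Adhesion genes leaned towards the excitatory class. Of 35 cadherins and adhesion genes measured, 16 were higher in excitatory cells, 1 (Pcdh19) was higher in inhibitory cells, and the median log2 ratio was 1.05. Cdh13 was 10.2-fold and 12.96-fold higher and Cntn2 8.81-fold and 8.80-fold higher in excitatory cells. Of 37 migration and guidance genes, 11 were higher in excitatory cells and 5 in inhibitory cells (Ackr3, Erbb4, Flrt2, Rnd3 and Sema3a), with a median of 0.19. Erbb4, the neuregulin receptor of migrating interneurons, was 66.0-fold and 25.7-fold higher in inhibitory cells, and Ackr3, a receptor for the chemokine Cxcl12, 7.83-fold and 9.83-fold. Unc5d, a netrin receptor family gene, was 14.5-fold and 5.06-fold higher in excitatory cells.

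**Figure D4:**
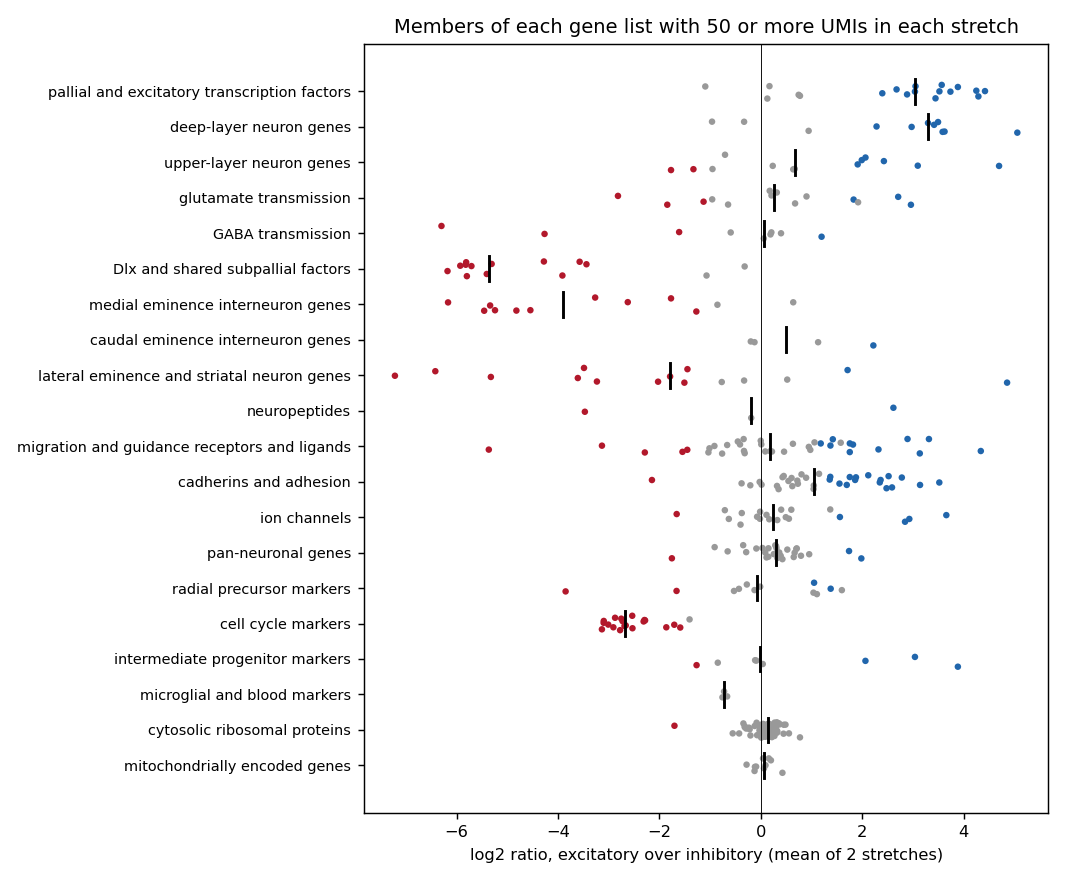
Log2 ratio of excitatory over inhibitory cells (mean of the 2 stretches, x axis) of each measured gene, by gene list (y axis), with blue and red for genes 2-fold higher in excitatory and inhibitory cells in both stretches, and black ticks for medians. Pallial and deep-layer genes lie to the right, Dlx, medial eminence and cell cycle genes to the left, and ribosomal and mitochondrial genes near 0.

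Of 28 pan-neuronal genes measured, 3 passed 2-fold, a share near that of all measured genes (5.40% and 3.63% for the 2 directions): Gap43 and Syt4 were higher in excitatory cells and Nefm in inhibitory cells. Gap43, a growth cone protein gene, was at 1165 and 1177 CPM in excitatory cells and at 345 and 356 CPM in inhibitory cells. Of 78 cytosolic ribosomal protein genes, Rps4y2 was the only one to pass 2-fold, being higher in inhibitory cells, and none of 10 mitochondrially encoded genes passed. The medians of these lists were 0.14 and 0.05.

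Markers of vascular, meningeal and oligodendrocyte precursor cells were near 0 in both classes. The vascular and meningeal list and the oligodendrocyte precursor list had no measured gene, with summed levels of 4.80 to 10.8 CPM and 2.49 to 18.9 CPM over classes and stretches. The Cajal-Retzius list summed to 59.7 and 37.8 CPM in excitatory cells and to 63.1 and 103 CPM in inhibitory cells, and neither of its 2 measured genes passed 2-fold in both stretches. The microglial marker C1qb had 22 and 16 UMIs in excitatory cells and 0 in inhibitory cells. Hemoglobin RNA was present in both classes and was higher in inhibitory cells by less than 2-fold: Hbb-bs was at 1316 and 1685 CPM in excitatory cells and at 2079 and 3041 CPM in inhibitory cells. With equal cell thresholds (at least 2 UMIs of the own pair and 0 of the other) and with stricter ones (5 Neurod or 4 Gad UMIs) Hbb-bs was instead higher in excitatory cells, at log2 ratios of 1.96 and 1.47. The part of hemoglobin RNA in the other ratios was not tested. Of 8 intermediate progenitor markers, Eomes (31.4-fold and 6.99-fold), Neurog2 (12.8-fold and 5.30-fold) and Sstr2 were higher in excitatory cells and Mfng in inhibitory cells.

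Cells with at least 2 cell cycle UMIs were then left out of both classes, which left 1945 excitatory and 404 inhibitory cells. Of the 305 genes higher in inhibitory cells, 93 were again 2-fold higher in both stretches, 46 were measured and were not, and 166 fell under the UMI minimum. Over all 7165 genes measured in these cells, 324 were 2-fold higher in excitatory and 130 in inhibitory cells. Dlx and shared subpallial factors were higher in inhibitory cells for 8 of 10 measured, medial eminence genes for 9 of 11 and lateral eminence genes for 8 of 13. Of the lateral eminence genes, 2 were higher in excitatory cells. Pallial factors were higher in excitatory cells for 14 of 18 and in inhibitory cells for 1. Sox2 had log2 ratios of -4.44 and -4.48 in these cells, beside -3.36 and -4.34 with all member cells.

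The same rule was applied to the all-cell tables of the other ages, each of which is 1 sample of other embryos. It found 821 excitatory and 277 inhibitory cells at E13.5, 629 and 324 at E17.5, and 61 and 183 at E11.5. At E13.5, 562 of 7770 measured genes (7.23%) were at least 2-fold higher in excitatory cells and 331 (4.26%) in inhibitory cells. Of the E15.5 excitatory genes measured there, 282 of 364 (77.5%) were 2-fold the same way, and of the inhibitory genes 215 of 277 (77.6%). None was 2-fold the opposite way. At E17.5, 333 of 6677 measured genes (4.99%) were 2-fold higher in excitatory cells and 234 (3.50%) in inhibitory cells. There, 184 of 301 E15.5 excitatory genes (61.1%) and 65.3% of 176 inhibitory genes were 2-fold the same way, and 1 of each was 2-fold the opposite way.

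At E11.5, 89 of 3427 measured genes (2.60%) were 2-fold higher in excitatory cells and 129 (3.76%) in inhibitory cells. Of the E15.5 excitatory genes measured, 24 of 52 (46.2%) were 2-fold the same way, and 45 of 167 inhibitory genes (26.9%). The opposite way, 1 excitatory and 5 inhibitory genes were 2-fold. The 61 excitatory cells of that age limit the precision. Dlx1 was 56.1-fold higher in inhibitory cells at E11.5, 153-fold at E13.5 and 18.3-fold at E17.5. Tbr1 was 18.0-fold higher in excitatory cells at E11.5, 20.9-fold at E13.5 and 5.69-fold at E17.5. Sox5 was 16.3-fold higher in excitatory cells at E13.5 and 2.59-fold at E17.5. Differences between ages were not tested, since each other age is a single sample.

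**Figure D5:**
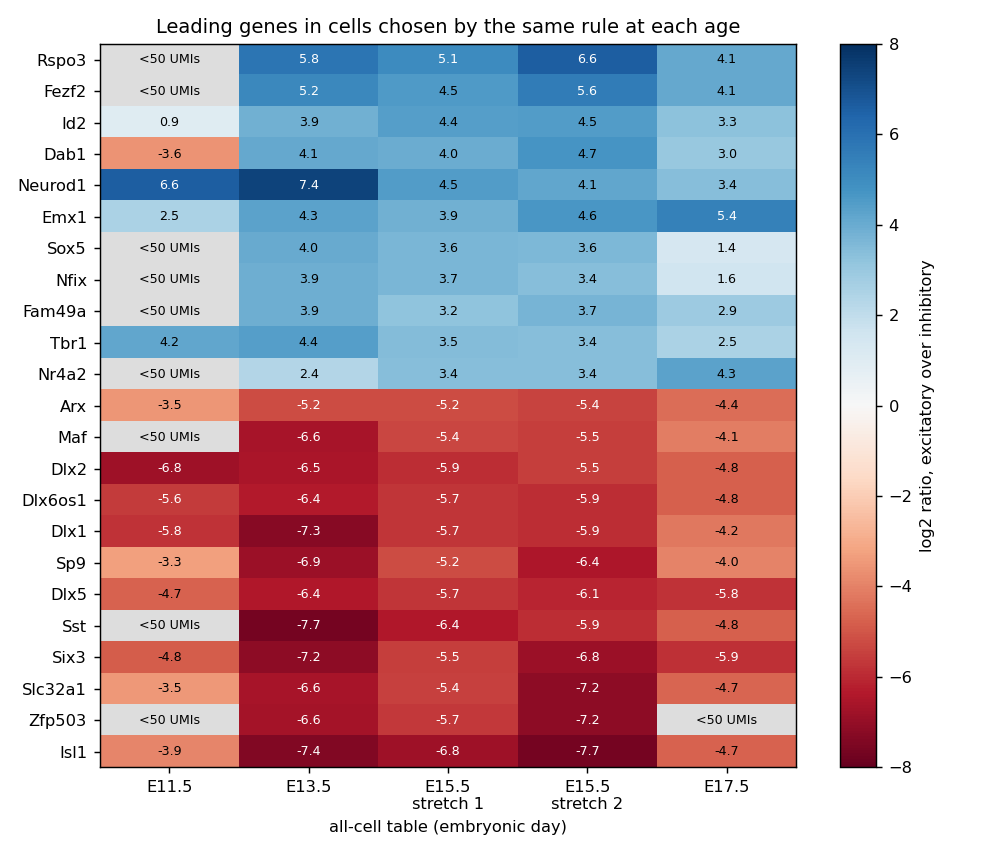
Log2 ratio, excitatory over inhibitory, of leading E15.5 genes in cells chosen by the same rule in each age's all-cell table (columns), with grey for genes under 50 UMIs. At E13.5 and E17.5 the genes shown keep the E15.5 direction, and Dab1 at E11.5, at -3.6, is the exception among the genes shown at that age.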

How the data were processed

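The deposited values are counts: UMIs per gene and cell in tables by Drop-seq, 1 table of all cells and 1 of cortical cells per age. The build was mm10, per the submitters' processing notes. An aligner, counting software or filter on cells was not given in the sources used here. At E15.5 the all-cell table held 19692 genes, 5000 cells and 13211734 UMIs, and cells with fewer than 500 UMIs (9) were left out.

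Counts of each class were summed per stretch and divided by the class's UMIs to give CPM. A gene was measured with at least 50 UMIs over both classes in each stretch and taken as higher with a ratio of at least 2 the same way in both. A class at 0 was set to 3 counts, and the limit beside a share of 0 is 3 counts of the cells. Intervals are exact (Clopper-Pearson for shares and ratios, Poisson for CPM) at 95%. Nothing was tested between classes. The calling step was tested on simulated data. No doublet caller was run, and leaving out cells above 2 times the median UMI count of their class and stretch was one alternative. Cells shared with the E13.5 table by barcode were 2, with E17.5 1 and with E11.5 0.

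The leading genes are the 12 of each direction with the largest ratio, ranked by the smaller over the stretches of the interval bound nearest to 1, without the rule genes, predicted genes, hemoglobin and mitochondrial genes. Up to 4 genes of each of 23 lists were named by the same rank. The cells and the lists were chosen with earlier results of these data known. Promoters are from RefSeq (GRCm38.p6) and gene spans from the same build. Python 3.11.15, numpy 2.4.6, scipy 1.17.1, pandas 2.3.3 and matplotlib 3.10.9 were used, with edgeR 4.0.16 in R 4.3.3 for the TMM factors of one alternative. Some items are not reported here, and the excitatory marker sum and the plots of leading genes leave them out.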

Additional observations from a re-analysis of the deposited data

Results flagged for a closer look

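The genes Dab1, Ebf1, Nefm, Ube2c and Mfng, named at E15.5, had the opposite direction at another age in cells chosen by the same rule. The differences were not tested, since each other age is 1 sample. Dab1 had a log2 ratio (excitatory over inhibitory) of -3.58 at E11.5, from 3 UMIs in excitatory and 108 in inhibitory cells, beside 3.96 and 4.72 in the E15.5 stretches. Ebf1 was at 1.001 at E11.5, beside -4.89 and -5.76. Nefm was at 1.36 at E17.5, beside -1.52 and -1.99. Ube2c was at 0.41 at E11.5, beside -2.91 and -3.28. Mfng was at 1.15 at E11.5, beside -1.07 and -1.46.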

How the results depend on the processing

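The count of genes higher in excitatory cells (453) was 242 with a ratio of at least 3, 207 with cells thinned to 1000 UMIs, 789 to 852 with only one of the stretches used and 963 with the table taken as 1 library. The count of genes higher in inhibitory cells (305) was 179 with a ratio of at least 3, 121 with thinned cells, 130 without cells of 2 or more cell cycle UMIs and 196 with stricter cell thresholds (5 Neurod or 4 Gad UMIs), which left 187 inhibitory cells in place of 631. It was 594 with a minimum of 10 UMIs, 1257 with none, 468 to 494 with only one of the stretches and 610 as 1 library. The share of E15.5 genes of either direction 2-fold the same way at E13.5 was 69.6% with a minimum of 10 UMIs and 56.2% with none, beside 77.5%. At E17.5 that share was 48.2% with no minimum, beside 62.7%. With TMM scaling the counts were 490 and 290. Excitatory genes made up 59.8% of the calls, 33.8% with no UMI minimum and 71.4% without cells of cell cycle UMIs. No named gene that was 2-fold higher in a class changed its direction under the alternatives run. Of the named genes that were not, Calb2, Cck, Nr2f1, Pax6, Hba-a1, Hbb-bs and Hbb-bt changed sign under at least one: Hbb-bs, at a log2 ratio of -0.76, was at 1.96 with equal cell thresholds (2 UMIs of the own pair and 0 of the other) and at 1.47 with the stricter ones. Without cells of cell cycle UMIs, list medians near 0 changed sign, from -0.02 to 1.31 for intermediate progenitor markers, from 0.26 to -0.10 for glutamate genes and from 0.06 to -0.13 for GABA genes. Restricting the cells to the cortical table was not run, since it holds 4 inhibitory cells. The inhibitory sums limit the depth: 1 UMI is 1.54 CPM in stretch 1 and 1.72 CPM in stretch 2.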

Other observations

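The cells outside both classes were described with the same markers. Among the 745 cells with 0 UMIs of all 4 rule genes, the 5 inhibitory markers summed to 998 CPM and the excitatory markers to 161 CPM, and 25.4% of these cells were in the cortical table. Cells past the excitatory threshold with 1 Gad UMI had 447 CPM of inhibitory and 316 CPM of excitatory markers, and 83.5% were in the cortical table. Inhibitory cells with 1 Neurod UMI (147) had 3069 CPM of inhibitory markers, beside 3257 CPM in the 484 inhibitory cells with none.

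Some genes differed more between the stretches than between the classes, and how many did was not counted. Mitochondrially encoded genes summed to 14736 and 21570 CPM in excitatory cells of stretches 1 and 2. In inhibitory cells they summed to 14946 and 22296 CPM. Malat1, a nuclear noncoding RNA, was at 2975 and 7741 CPM in excitatory cells of stretches 1 and 2 and at 3680.0 and 8931 CPM in inhibitory cells. Fos, an immediate early gene, was at 209.6 and 67.6 CPM in excitatory cells and at 334 and 65.3 CPM in inhibitory cells.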
